A study of Mus musculus with 4 samples.

Results

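Skeletal muscle fibres contract through the sarcomere, in which thick myosin filaments pull on thin actin filaments anchored at the Z-disc. Fast and slow fibres build this machine from different isoforms of the same proteins. In adult mice the fast fibres are further divided by myosin heavy chain into IIb (Myh4), IIx (Myh1) and IIa (Myh2), running from glycolytic to oxidative, while slow fibres use Myh7. Dorsal root ganglia hold the cell bodies of sensory neurons and their glia, lie close to the muscles of the back, and are not known for fibres of this kind. The data described here are the levels of 42 such genes in bulk RNA of mouse dorsal root ganglia, of which 40 had a row among the 14405 genes of the deposited matrix; Myh7 and Ttn, which encodes titin, were not analysed here. The genes were listed by name with the values of these libraries already known, so their levels are a description and carry no test of their own.

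The libraries were 2 from Prdm12 mutants and 2 from wild type mice, all aged 10 weeks and of a strain labelled Mixed. The mutants were Prdm12-/Fl; AvilCreERT2/+, which means that they had a null and a floxed copy of Prdm12, together with a Cre recombinase expressed from the sensory neuron gene Avil that becomes active with tamoxifen. The labels do not state the tamoxifen treatment or whether a library pooled animals. The targeted gene Prdm12 was at 1.05 and 1.50 FPKM in mutant 1 and 2, against 7.58 and 10.7 FPKM in wild type 1 and 2. FPKM scales read fragments by transcript length and library size, so that levels can be compared between genes within a library. FPKM totals ran from 620018 to 686830 and the sequencing depth is unknown. Nothing in the labels says that libraries of a group came from separate animals, so the spread between them may be technical. Of the 10 sensory neuron genes used to check the tissue label, all were detected in every library, with Uchl1, a neuronal ubiquitin hydrolase, at 1636 and 2433 FPKM in mutant 1 and 2 and at 1593 and 1983 FPKM in wild type 1 and 2. The tubulin gene Tubb3 was at 777 and 1079 FPKM in mutant 1 and 2 and at 672 and 775 FPKM in wild type 1 and 2.

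The 3 fast myosin heavy chain genes lie side by side on chromosome 11 in the order Myh2, Myh1 and Myh4, and the results turn on how their levels part between libraries. Their upstream sequences are shown first, with that of Mylpf, a fast light chain gene whose level followed the general muscle signal, and of Csrp3, a Z-disc gene that departed from it. Each is the 250 bases before the RefSeq transcription start on GRCm38.p6, 5′ to 3′ on the strand of the gene. Capitals mark an E-box (CANNTG), a TATA box (TATAAA), the MEF2 consensus or the CArG consensus, searched on both strands. The windows are Myh2 at chr11:67170777-67171026 (+), Myh1 at chr11:67199852-67200101 (+), Myh4 at chr11:67237562-67237811 (+), Mylpf at chr7:127211358-127211607 (+) and the upstream of both Csrp3 starts at chr7:48848052-48848301 (-).
Myh2: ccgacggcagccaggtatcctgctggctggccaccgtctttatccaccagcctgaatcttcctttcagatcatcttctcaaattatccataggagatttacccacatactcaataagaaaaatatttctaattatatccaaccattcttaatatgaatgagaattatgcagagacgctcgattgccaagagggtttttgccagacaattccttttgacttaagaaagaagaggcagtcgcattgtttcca
Myh1: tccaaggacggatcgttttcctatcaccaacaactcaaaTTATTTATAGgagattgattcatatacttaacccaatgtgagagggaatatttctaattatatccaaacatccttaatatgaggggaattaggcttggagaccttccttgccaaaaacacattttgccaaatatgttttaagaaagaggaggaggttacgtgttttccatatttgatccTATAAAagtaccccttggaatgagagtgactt
Myh4: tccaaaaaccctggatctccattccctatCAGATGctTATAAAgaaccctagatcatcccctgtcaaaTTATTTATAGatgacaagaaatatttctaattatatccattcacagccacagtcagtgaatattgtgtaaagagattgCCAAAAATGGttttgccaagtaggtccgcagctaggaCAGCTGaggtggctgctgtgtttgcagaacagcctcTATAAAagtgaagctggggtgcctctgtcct
Mylpf: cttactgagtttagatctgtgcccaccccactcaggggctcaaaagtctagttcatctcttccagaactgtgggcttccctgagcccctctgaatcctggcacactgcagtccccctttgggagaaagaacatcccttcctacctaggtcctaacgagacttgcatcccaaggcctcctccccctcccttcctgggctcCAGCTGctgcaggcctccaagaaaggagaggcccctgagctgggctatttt
Csrp3: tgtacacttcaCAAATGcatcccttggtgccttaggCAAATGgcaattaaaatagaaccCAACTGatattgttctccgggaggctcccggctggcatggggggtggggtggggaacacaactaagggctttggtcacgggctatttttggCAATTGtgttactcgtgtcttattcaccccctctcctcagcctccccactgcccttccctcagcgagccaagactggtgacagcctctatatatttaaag

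The Myh4 window held 3 TATAAA matches, the last of them from base -31 to -26 counted back from the start, and the Myh1 window held 2, the last from -32 to -27. In both genes another TATAAA match lay inside a MEF2 match, at -182 to -173 in Myh4 and at -211 to -202 in Myh1. The Myh4 window also held 2 E-boxes and a CArG match, while the Myh2 window held none of the 4 motifs. The longest run that all 3 myosin windows shared was 20 bases.
shared run: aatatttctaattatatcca

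It ended 111 bases before the start of Myh2, 146 before that of Myh1 and 144 before that of Myh4. The 30 genes of the list with a promoter entry had 39 windows, since some have several starts, and 33 of these (84.6%) held an E-box, against 66.2% of all 32851 windows of that length. A TATA box was found in 6 of the 39 (15.4%), against 12.4% of all windows, a MEF2 match in 4 (10.3%), against 2.92%, and a CArG match in 5 (12.8%), against 1.47%. These matches are descriptions of letters and say nothing of binding.

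The muscle genes were abundant in the second library of each genotype and low in the first. Their FPKM summed to 295 and 6550 in mutant 1 and 2, which is 0.0468% and 0.954% of the FPKM total, against 568 and 3509 in wild type 1 and 2, which is 0.0917% and 0.521%. Mutant 2 had the highest value for 25 of the 40 genes, wild type 2 for 14 and wild type 1 for 1. The lowest value was in mutant 1 for 38. For 32 genes, mutant 2 and wild type 2 were the highest pair. These placings were not counted over all genes. In bulk RNA, fewer cells of a type and less RNA per cell cannot be told apart.

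**Figure D1:**
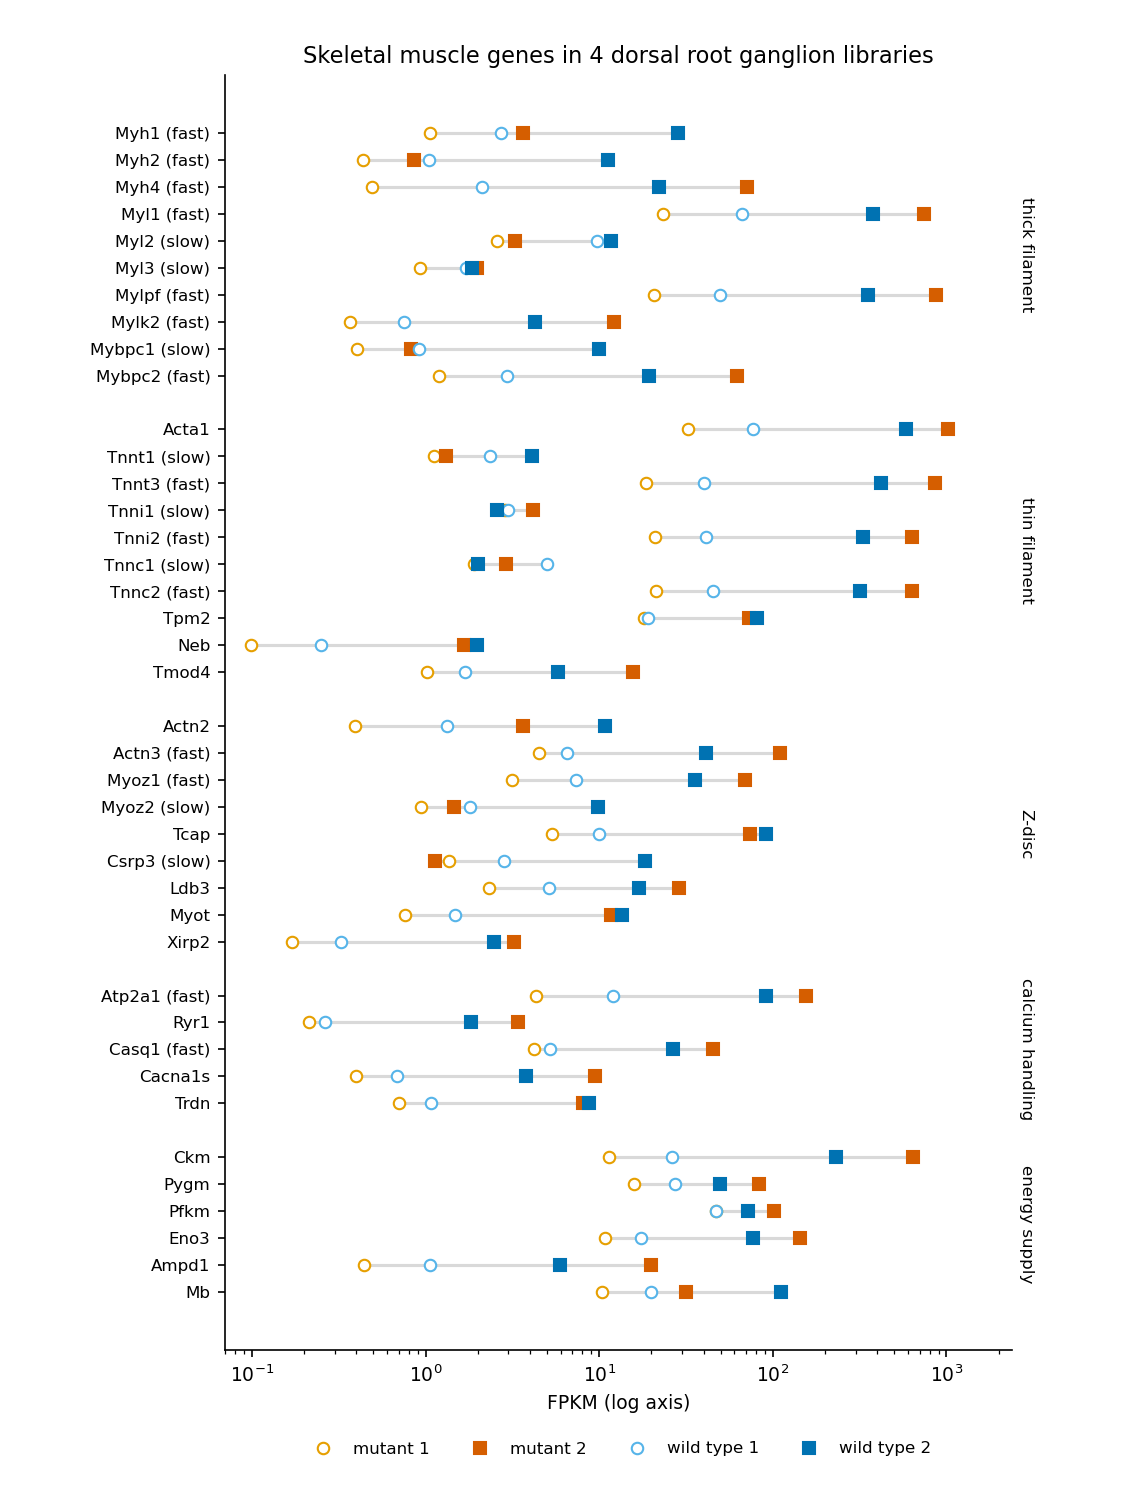
FPKM (log axis) of the 40 genes in each library, grouped by role, with the fibre type in brackets where a gene belongs to one. Open circles are the first and filled squares the second library of each genotype (orange and red mutant, light and dark blue wild type); Acta1 reaches 1027 FPKM in mutant 2 and 585 FPKM in wild type 2, while Tnni1 and Tnnc1 stay below 5 FPKM in all libraries.

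Libraries of the same genotype differed widely. Of the 40 genes, 28 (70%) were at least 4-fold higher in mutant 2 than in mutant 1 with at least 1 FPKM in the higher library, where 1.24% of all genes were. In wild type, 31 (77.5%) were at least 4-fold higher in library 2 than in library 1, where 0.979% of all genes were. The median ratio was 14.6-fold for mutant 2 over mutant 1 and 6.42-fold for wild type 2 over wild type 1, while over all genes tested it was 1.04-fold in both. Mutant 1 was 4-fold above mutant 2 for 0 of the 40, where 0.208% of all genes were, and wild type 1 above wild type 2 for 0, where 0.139% were. These ratios set 1 library against another and have no replicate check.

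Between genotypes, limma on log2(FPKM + 1) called 0 of 14040 genes at an adjusted p of 0.05, and therefore 0 of the 40. The targeted gene Prdm12 was also not called, at a log2 difference of -2.14 with a standard error of 0.213. At an unadjusted p under 0.05 limma gave 612 genes (4.36%) and 3 of the 40, which were Myl2, Tnnt1 and Csrp3. The median log2 difference, mutant minus wild type, was -0.06 over the 40 genes and -0.0048 over all genes tested. Both mutants lay below both wild types for 6 of the 40 (15%), against 19.6% of all genes tested, and above them for 0, against 12.5%. These 6 were Myh2, Myl2, Mybpc1, Tnnt1, Myoz2 and Csrp3, and 5 of them are slow-fibre genes. The sign of the differences followed single libraries. Without mutant 2, 39 of the 40 had a negative log2 difference and the median was -1.70, while without mutant 1, 30 were positive and the median was 1.23. Without wild type 1, 38 were negative, and without wild type 2, 29 of the 38 still tested were positive. Over all genes tested, the median log2 difference in these fits stayed between -0.047 and 0.025.

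Among the thick filament genes, Myh4 and Myh1 went different ways between mutant 2 and wild type 2. Myh4, the IIb heavy chain, was at 0.490 and 70.9 FPKM in mutant 1 and 2, against 2.12 and 22.0 FPKM in wild type 1 and 2. Myh1, the IIx heavy chain, was at 1.06 and 3.62 FPKM in mutant 1 and 2, against 2.71 and 28.4 FPKM in wild type 1 and 2. Myh2, the IIa heavy chain, was at 0.436 and 0.861 FPKM in mutant 1 and 2, against 1.05 and 11.3 FPKM in wild type 1 and 2. So mutant 2 had 3.22 times the Myh4 of wild type 2, while wild type 2 had 7.84 times the Myh1 and 13.1 times the Myh2 of mutant 2.

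Expressed as shares of the summed FPKM of these 3 genes, the heavy chains in mutant 2 were 94.1% Myh4, 4.80% Myh1 and 1.14% Myh2. In mutant 1, where the sum was 1.98 FPKM, they were 24.7% Myh4, 53.3% Myh1 and 22.0% Myh2. The wild types resembled each other: Myh4, Myh1 and Myh2 took 36.0%, 46.1% and 17.8% in wild type 1 and 35.7%, 46.1% and 18.2% in wild type 2, although their sums were 5.88 and 61.7 FPKM. Mutant 2 was thus the library with another composition, and mutant 1 lay nearer to the wild types than to mutant 2. The 3 genes are close paralogues, so reads may have been shared between them by the authors' counting, and their single values are uncertain to that extent. Exons of Myh1 and Myh2 also overlap annotated antisense transcripts, and no source used here gives the strandedness of the libraries. Over the whole list, exons of 16 of the 40 genes overlap another annotated gene.

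**Figure D2:**
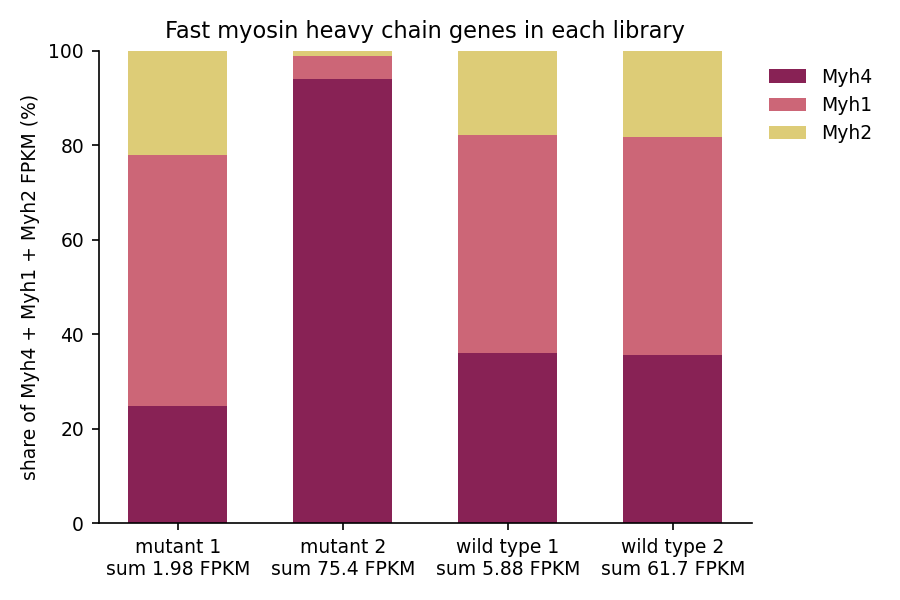
Share of the summed FPKM of Myh4, Myh1 and Myh2 (%) in each library, with the sum in FPKM under each bar. Myh4 makes up 94.1% in mutant 2 and between 24.7% and 36.0% in the other 3 libraries, and the bars of wild type 1 and 2 are nearly the same.

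The fast light chains followed the general muscle signal. Mylpf, the regulatory light chain of fast myosin, was at 20.7 and 866 FPKM in mutant 1 and 2, against 49.9 and 354 FPKM in wild type 1 and 2. Myl1, the essential light chain, was at 23.2 and 738 FPKM in mutant 1 and 2, against 66.3 and 377 FPKM in wild type 1 and 2. In both genes mutant 2 was highest and mutant 1 lowest, so that the genotypes overlapped completely. The same order held for Mybpc2, fast myosin binding protein C, which was at 1.20 and 61.8 FPKM in mutant 1 and 2, against 2.93 and 19.3 FPKM in wild type 1 and 2, and for the skeletal light chain kinase gene Mylk2, at 0.368 and 12.2 FPKM in mutant 1 and 2 and at 0.748 and 4.25 FPKM in wild type 1 and 2.

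Of the slow thick filament genes, Myl3 had this order of libraries, and Myl2 and Mybpc1 did not. Myl2, the regulatory light chain of slow and ventricular myosin, was at 2.59 and 3.26 FPKM in mutant 1 and 2, against 9.78 and 11.7 FPKM in wild type 1 and 2. Its libraries separated by genotype and hardly at all by library number, with 2.92 ± 0.469 FPKM in mutants and 10.7 ± 1.35 FPKM in wild type (SD, n = 2 each), a log2 difference of -1.58 with a standard error of 0.171. It kept this sign and a size of -1.46 to -1.70 with each library left out, but missed the threshold over the whole table (limma adjusted p = 0.219). Myl3, the slow essential light chain, was at 0.925 and 1.98 FPKM in mutant 1 and 2 and at 1.70 and 1.86 FPKM in wild type 1 and 2, which overlapped. Mybpc1, slow myosin binding protein C, was at 0.401 and 0.829 FPKM in mutant 1 and 2, against 0.916 and 9.98 FPKM in wild type 1 and 2, so that wild type 2 alone was high. Exons of Myl2 overlap Ccdc63 and those of Myl3 overlap Pth1r, both on the opposite strand.

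The thin filament repeated the split between fast and slow. Acta1, the skeletal alpha actin used by all fibres, was the most abundant gene of the list in mutant 2 and wild type 2, at 32.4 and 1027 FPKM in mutant 1 and 2, against 76.7 and 585 FPKM in wild type 1 and 2. The fast troponins moved with it and stood close to each other. Tnnt3, which binds tropomyosin, was at 18.5 and 855 FPKM in mutant 1 and 2 and at 40.1 and 417 FPKM in wild type 1 and 2. Tnni2, the inhibitory subunit, was at 21.0 and 636 FPKM in mutant 1 and 2 and at 41.4 and 333 FPKM in wild type 1 and 2. Tnnc2, the calcium-binding subunit, was at 21.2 and 629 FPKM in mutant 1 and 2 and at 45.4 and 316 FPKM in wild type 1 and 2. The 3 fast troponins thus differed between mutant 2 and wild type 2 by 1.91 to 2.05 times.

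The slow troponins stayed low in every library. Tnni1 was at 2.89 and 4.15 FPKM in mutant 1 and 2 and at 2.97 and 2.59 FPKM in wild type 1 and 2. Tnnc1, which slow fibres share with the heart, was at 1.90 and 2.92 FPKM in mutant 1 and 2 and at 4.99 and 1.99 FPKM in wild type 1 and 2. Neither was higher in wild type 2 than in wild type 1, unlike the other 38 genes. Tnnt1 was at 1.12 and 1.31 FPKM in mutant 1 and 2, against 2.35 and 4.11 FPKM in wild type 1 and 2, without overlap between the genotypes. Beta tropomyosin (Tpm2) was at 18.2 and 73.0 FPKM in mutant 1 and 2 and at 19.1 and 81.2 FPKM in wild type 1 and 2, close to equal between genotypes at each library number. The thin filament ruler nebulin (Neb) reached 1.97 FPKM at most, and the capping protein gene Tmod4 was at 1.02 and 15.7 FPKM in mutant 1 and 2 and at 1.68 and 5.79 FPKM in wild type 1 and 2.

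Of the Z-disc genes, Actn3 and Actn2, both encoding alpha actinin, differed in opposite directions between mutant 2 and wild type 2. Actn3, made in fast fibres, was at 4.51 and 111 FPKM in mutant 1 and 2, against 6.52 and 41.4 FPKM in wild type 1 and 2. Actn2 was at 0.391 and 3.62 FPKM in mutant 1 and 2, against 1.34 and 10.8 FPKM in wild type 1 and 2. The myozenins, which bind calcineurin at the Z-disc, parted in the same way. Myoz1, the fast form, was at 3.17 and 69.4 FPKM in mutant 1 and 2 and at 7.34 and 35.4 FPKM in wild type 1 and 2, while Myoz2, the slow and cardiac form, was at 0.944 and 1.45 FPKM in mutant 1 and 2 and at 1.80 and 9.79 FPKM in wild type 1 and 2. The widest gap was that of Csrp3, the muscle LIM protein of slow fibres and heart. It was at 1.36 and 1.14 FPKM in mutant 1 and 2, against 2.83 and 18.4 FPKM in wild type 1 and 2, so that wild type 2 had 16.1 times the level of mutant 2 and mutant 2 was the lowest library of all. The titin-capping gene Tcap (74.0 FPKM in mutant 2 and 91.9 FPKM in wild type 2) and the myotilin gene Myot (11.7 FPKM in mutant 2 and 13.5 FPKM in wild type 2) were similar in these libraries. Ldb3, which encodes the PDZ protein ZASP, and the actin-binding gene Xirp2 were 1.70 and 1.31 times as high in mutant 2 as in wild type 2.

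Calcium handling genes of the triad followed the fast pattern. Atp2a1, the calcium pump SERCA1 of fast fibres, was at 4.31 and 156 FPKM in mutant 1 and 2, against 12.0 and 91.8 FPKM in wild type 1 and 2. Cacna1s, the voltage sensor, was at 0.397 and 9.48 FPKM in mutant 1 and 2 and at 0.683 and 3.77 FPKM in wild type 1 and 2. Ryr1, the release channel, was at 0.212 and 3.41 FPKM in mutant 1 and 2 and at 0.263 and 1.83 FPKM in wild type 1 and 2. All 5 genes of this group, with the calcium store gene Casq1 and the junction gene Trdn, were at least 4-fold higher in the second than in the first library of both genotypes. Mutant 2 exceeded wild type 2 in 4 of them, while Trdn was at 8.08 FPKM in mutant 2 and 8.72 FPKM in wild type 2.

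In energy supply, the myoglobin gene was lower in mutant 2 than in wild type 2, while the other 5 genes were higher. Mb, the oxygen store of oxidative fibres, was at 10.4 and 31.8 FPKM in mutant 1 and 2, against 19.8 and 111 FPKM in wild type 1 and 2. Ckm, the muscle creatine kinase, was at 11.4 and 639 FPKM in mutant 1 and 2, against 26.4 and 232 FPKM in wild type 1 and 2. Ampd1, AMP deaminase, was at 0.443 and 20.0 FPKM in mutant 1 and 2, against 1.06 and 5.96 FPKM in wild type 1 and 2. Mutant 2 thus had 2.76 times the Ckm and 3.35 times the Ampd1 of wild type 2, while wild type 2 had 3.50 times its Mb. Eno3, beta enolase, was at 10.8 and 144 FPKM in mutant 1 and 2 and at 17.4 and 76.9 FPKM in wild type 1 and 2. The glycogen phosphorylase gene Pygm, at 15.9 and 83.1 FPKM in mutant 1 and 2, against 27.3 and 49.9 FPKM in wild type 1 and 2, and the phosphofructokinase gene Pfkm, at 47.3 and 101 FPKM in mutant 1 and 2 and at 47.4 and 72.3 FPKM in wild type 1 and 2, varied less than the rest of the group.

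Grouped by fibre type, the 14 fast-fibre genes summed to 124 and 4254 FPKM in mutant 1 and 2, against 284 and 2077 FPKM in wild type 1 and 2. The 8 slow-fibre genes summed to 12.1 and 17.0 FPKM in mutant 1 and 2, against 27.3 and 60.4 FPKM in wild type 1 and 2. In mutant 2 the fast sum was therefore 34.2 times that of mutant 1 and the slow sum 1.40 times. Of the fast genes, 12 of 14 were higher in mutant 2 than in wild type 2, the exceptions being Myh1 and Myh2. Of the slow genes, 3 of 8 were (Tnni1, Tnnc1 and Myl3), and of all 14040 genes tested 6774 were. The median ratio of mutant 2 to wild type 2 was 1.98-fold for the fast, 1.53-fold for the other 18 and 0.299-fold for the slow genes, and 0.989-fold over all genes tested. Wild type 2 was at least 4-fold above mutant 2 for 5 of the 40 (12.5%), namely Myh1, Myh2, Mybpc1, Myoz2 and Csrp3, where 0.771% of all genes were. Mutant 2 was 4-fold above wild type 2 for 0 of the 40, against 0.257% of all genes.

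**Figure D3:**
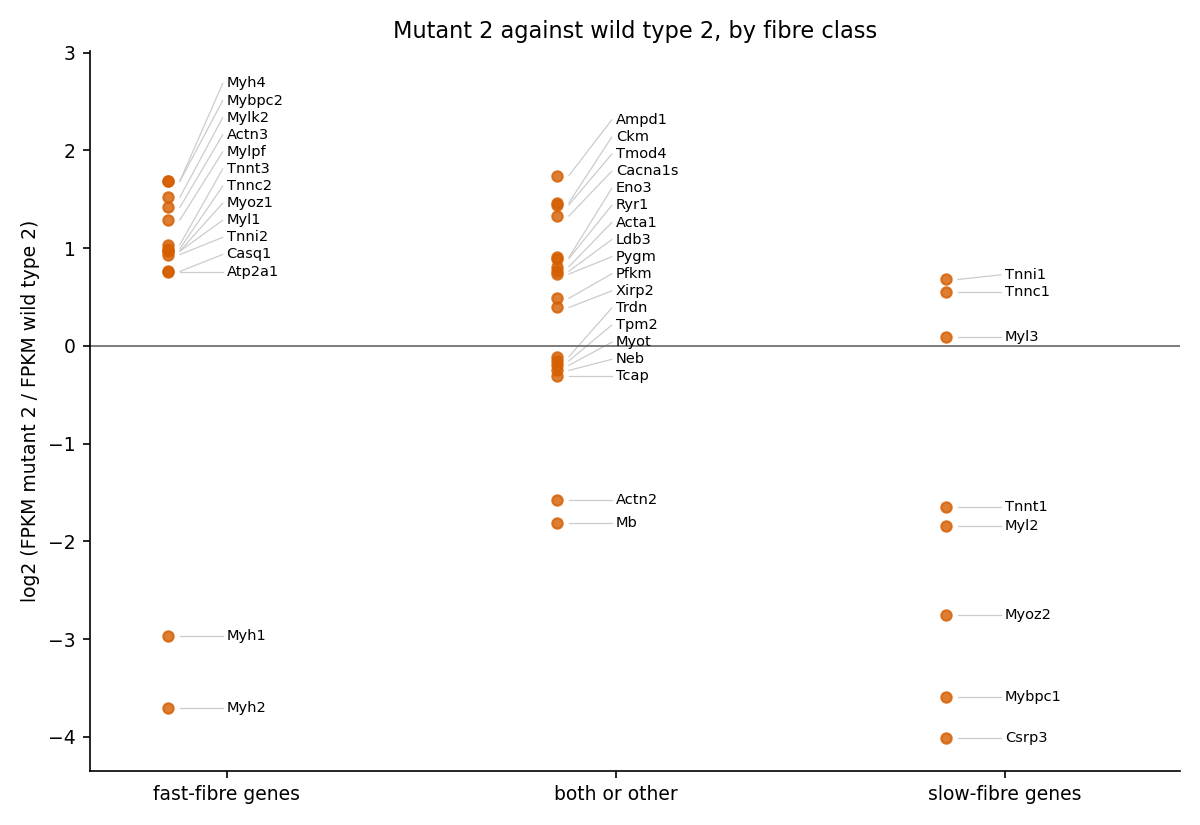
Log2 ratio of FPKM, mutant 2 over wild type 2, for each of the 40 genes by fibre class. The fast-fibre genes except Myh1 and Myh2 lie above 0, with Myh4 and Mybpc2 at 3.22-fold and 3.21-fold, while Csrp3, Mybpc1 and Myoz2 lie far below.

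Mutant 1 and wild type 1, the low libraries, differed in level more than in composition. All 40 genes were lower in mutant 1 than in wild type 1, as were 7298 of the 14040 genes tested. The median gap was 2.09-fold, with 2.36-fold for the fast and 2.09-fold for the slow genes, and 1.01-fold over all genes tested. At least a 4-fold gap was seen for 1 gene (2.5%), Myh4, where 0.257% of all genes were as far below wild type 1. Mutant 1 was 4-fold above wild type 1 for 0 of the 40, against 0.236% of all genes.

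Scaling each gene to 100 FPKM of Acta1 in the same library sets the overall amount of muscle RNA aside and shows the composition. On this scale Tnni2 was at 64.8 and 61.9 in mutant 1 and 2 and at 54.0 and 56.9 in wild type 1 and 2, and Atp2a1 at 13.3 and 15.1 in mutant 1 and 2 and at 15.6 and 15.7 in wild type 1 and 2, so these fast genes kept nearly the same proportion to actin in all libraries. Csrp3 was at 4.21 and 0.111 in mutant 1 and 2, against 3.69 and 3.14 in wild type 1 and 2. Mb was at 32.2 and 3.09 in mutant 1 and 2, against 25.8 and 19.0 in wild type 1 and 2. Mutant 1 was thus like the wild types in both genes, and mutant 2 was low. Mybpc1 and Myoz2 had this pattern too. The slow genes Tnni1, Tnnc1 and Myl3 were instead low in both second libraries. They were at 0.404, 0.285 and 0.193 in mutant 2 and at 0.443, 0.341 and 0.318 in wild type 2. In mutant 1 they were at 8.91, 5.87 and 2.85, and in wild type 1 at 3.87, 6.50 and 2.22. Myl2 and Tnnt1 lay between these patterns. In all, 8 of the 40 genes were at least 4-fold lower per Acta1 in mutant 2 than in each of the other 3 libraries, 5 slow, 2 fast (Myh1 and Myh2) and Mb. None was as much as 2-fold higher in mutant 2 than in each of the others, and the nearest was Myh4, at 1.51 and 6.91 in mutant 1 and 2, against 2.76 and 3.77 in wild type 1 and 2. Genes with a level that varied much less than that of Acta1 were high on this scale in the libraries with little Acta1. Pfkm, for example, was at 146 in mutant 1 and 61.8 in wild type 1. Mutant 2 had the most Acta1, so genes that did not rise with Acta1 were low there on this scale. By any amount, 22 of the 40 were lower in mutant 2 than in every other library. The share of all genes this low per Acta1, by any amount or at least 4-fold, was not computed. The ratio of mutant 2 to wild type 2 was 1.75-fold for Acta1 and 0.989-fold in the median over all genes tested. A typical gene was therefore also lower in mutant 2 than in wild type 2 on this scale.

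The ratio of fast to slow isoform could be formed within each library for 7 pairs, on log2(FPKM + 0.1). Its mean over the pairs was 2.95 and 7.46 in mutant 1 and 2, against 3.15 and 5.16 in wild type 1 and 2, or 5.20 ± 3.19 in mutants and 4.15 ± 1.42 in wild type (SD, n = 2 each). The difference of 1.05 between genotypes was smaller than the spread between the libraries of either. An exact permutation test of 2 against 2 cannot give a p below 0.333, and none was run. For troponin T the fast form exceeded the slow 16.6-fold and 653-fold in mutant 1 and 2, against 17.1-fold and 102-fold in wild type 1 and 2. For myosin binding protein C it was 3.0-fold and 74.6-fold in mutant 1 and 2, against 3.20-fold and 1.93-fold in wild type 1 and 2, and for myozenin 3.35-fold and 47.9-fold in mutant 1 and 2, against 4.08-fold and 3.62-fold in wild type 1 and 2. The binding protein and myozenin ratios were therefore high in mutant 2 alone, whereas the 5 troponin and light chain ratios were high in both second libraries. The slow forms Tnni1, Tnnc1 and Myl3 were low in level and did not follow the muscle signal. From library 1 to 2, Acta1 rose 31.7-fold in mutants and 7.63-fold in wild type, while Tnni1 changed 1.44-fold and 0.873-fold. Such ratios rise with the amount of fast-fibre RNA alone, and whether fibre type differed was not tested.

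**Figure D4:**
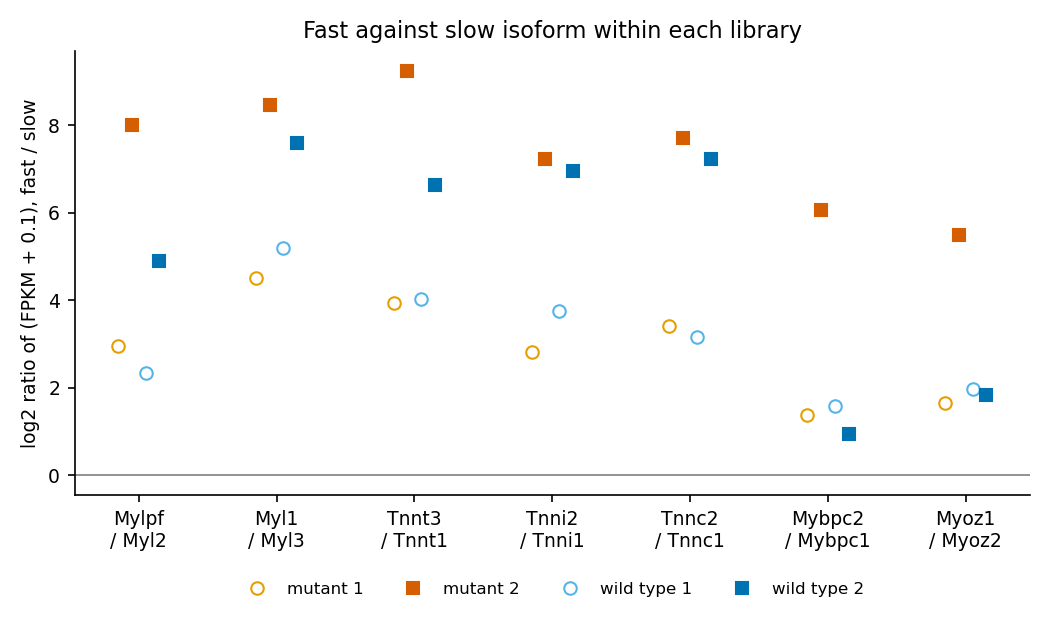
Log2 ratio of (FPKM + 0.1), fast over slow isoform, for the 7 pairs in each library. Mutant 2 is highest for each pair, reaching 9.25 for troponin T, and wild type 2 joins the first libraries for Mybpc2 over Mybpc1 and Myoz1 over Myoz2.

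The authors' deposited table of genes that differed between genotypes holds 150 genes, 1.04% of those measured, and 12 of the 40 muscle genes (30%) are among them. With 21 listed as higher in mutants (0.146% of all genes), 4 of the 40 were, and with 129 listed as lower (0.896%), 8 of the 40 were. The 4 higher in the authors' deposited table were Myh4 (log2 change 1.56), Ampd1 (1.54), Mybpc2 (1.51) and Actn3 (1.26). The 8 lower in the authors' deposited table were Myh2 (-3.25), Mybpc1 (-3.15), Csrp3 (-3.08), Myh1 (-2.73), Myoz2 (-2.28), Myl2 (-1.88), Mb (-1.63) and Actn2 (-1.60). The group value that the table reports for each is the mean of libraries described above. For 7 of these 12 genes, the mutant and wild type libraries overlapped: all 4 listed as higher, and Myh1, Mb and Actn2. For 5 the libraries did not overlap, and of these Myl2 was the one in which both wild types stood clear of both mutants by more than the gap within either genotype.

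Most muscle genes outside the list were also highest in mutant 2 and lowest in mutant 1. This was so for 19 of 32 further contractile and calcium genes and for 9 of 12 muscle energy genes. The share of all genes with these extremes was not computed. Of 34 further contractile and calcium genes 32 had a row, and their medians lay at -0.68 and 0.91 in mutant 1 and 2 and at -0.58 and 0.45 in wild type 1 and 2, as log2(FPKM + 1) deviations from the mean of the 4 libraries. Pvalb, the calcium buffer of fast fibres that proprioceptive neurons also express, was at 220 and 624 FPKM in mutant 1 and 2 and at 226 and 401 FPKM in wild type 1 and 2. Tpm1, alpha tropomyosin, was at 171 and 781 FPKM in mutant 1 and 2 and at 172 and 453 FPKM in wild type 1 and 2. Casq2, the slow and cardiac calsequestrin, went the other way between the mutants, at 14.2 and 6.20 FPKM in mutant 1 and 2, against 7.28 and 8.89 FPKM in wild type 1 and 2, and is named after its values were seen. Among 12 muscle energy genes, Car3, a carbonic anhydrase of muscle and fat, was at 40.3 and 547 FPKM in mutant 1 and 2 and at 83.3 and 196 FPKM in wild type 1 and 2. Cox8b, a cytochrome oxidase subunit of muscle and brown fat, was at 19.4 and 398 FPKM in mutant 1 and 2 and at 22.8 and 124 FPKM in wild type 1 and 2. All 12 were higher in mutant 2 than in mutant 1, as were 7836 of the 14040 genes tested.

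The genes most like the median profile of the 40 were taken among all others of at least 5 FPKM on average, by the root mean square distance of their centred log2(FPKM + 1) over the 4 libraries. The 8 nearest were Jsrp1 (distance 0.11), Rpl3l (0.14), Ckmt2 (0.15), Klhl41 (0.23), Ankrd23 (0.27), Des (0.28), Pck1 (0.29) and Cidea (0.30). Jsrp1, a protein of the muscle triad, was at 0.635 and 12.3 FPKM in mutant 1 and 2 and at 1.38 and 7.86 FPKM in wild type 1 and 2. Cidea, a lipid droplet gene of fat cells, was at 2.48 and 37.2 FPKM in mutant 1 and 2 and at 3.44 and 18.7 FPKM in wild type 1 and 2.

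Markers of other cells differed in how far they moved with the muscle genes. The 8 adipocyte genes had summed levels of 278 and 2343 FPKM in mutant 1 and 2, against 485 and 764 FPKM in wild type 1 and 2, with none at 0. Fabp4 was at 153 and 1328 FPKM in mutant 1 and 2, against 249 and 484 FPKM in wild type 1 and 2, and the adipsin gene Cfd at 96.2 and 757 FPKM in mutant 1 and 2 and at 184 and 202 FPKM in wild type 1 and 2. The sum of these genes was thus lowest in mutant 1 and highest in mutant 2, with a smaller step in wild type, and 7 of the 8 had that order. Pparg, the regulator of fat cell formation, was the exception, at 2.30 and 8.93 FPKM in mutant 1 and 2, against 1.37 and 3.36 FPKM in wild type 1 and 2. The 5 Schwann cell genes summed to 5803 and 11439 FPKM in mutant 1 and 2, against 5523 and 4909 FPKM in wild type 1 and 2, and the 10 sensory neuron genes to 3887 and 5832 FPKM in mutant 1 and 2, against 3653 and 4825 FPKM in wild type 1 and 2. Pmp22, a myelin protein, was at 3404 and 6144 FPKM in mutant 1 and 2, against 3153 and 2752 FPKM in wild type 1 and 2, and Mbp, myelin basic protein, at 2133 and 4745 FPKM in mutant 1 and 2 and at 2114 and 1863 FPKM in wild type 1 and 2. The part of any of these in the muscle values was not tested.

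Smooth muscle, tendon and blood markers did not have the muscle order. The 8 smooth muscle genes summed to 246 and 216 FPKM in mutant 1 and 2, against 183 and 266 FPKM in wild type 1 and 2, with Tagln at 111 and 89.9 FPKM in mutant 1 and 2 and 81.0 and 115 FPKM in wild type 1 and 2, and Acta2 at 58.2 and 38.1 FPKM in mutant 1 and 2 and 37.7 and 65.0 FPKM in wild type 1 and 2. The 7 tendon genes with a row summed to 105 and 79.0 FPKM in mutant 1 and 2, against 167 and 136 FPKM in wild type 1 and 2, with the matrix gene Fmod at 35.3 and 24.1 FPKM in mutant 1 and 2 and 105 and 72.4 FPKM in wild type 1 and 2, and Thbs4 at 27.8 and 21.9 FPKM in mutant 1 and 2 and 20.5 and 22.0 FPKM in wild type 1 and 2. The 5 erythrocyte genes with a row followed genotype, summing to 6371 and 6500 FPKM in mutants and to 3398 and 3189 FPKM in wild type. Among them Hbb-b1 was at 2912 and 2786 FPKM in mutants and 1470 and 1573 FPKM in wild type, and Hba-a1 at 2566 and 2912 FPKM in mutants and 1412 and 1211 FPKM in wild type.

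**Figure D5:**
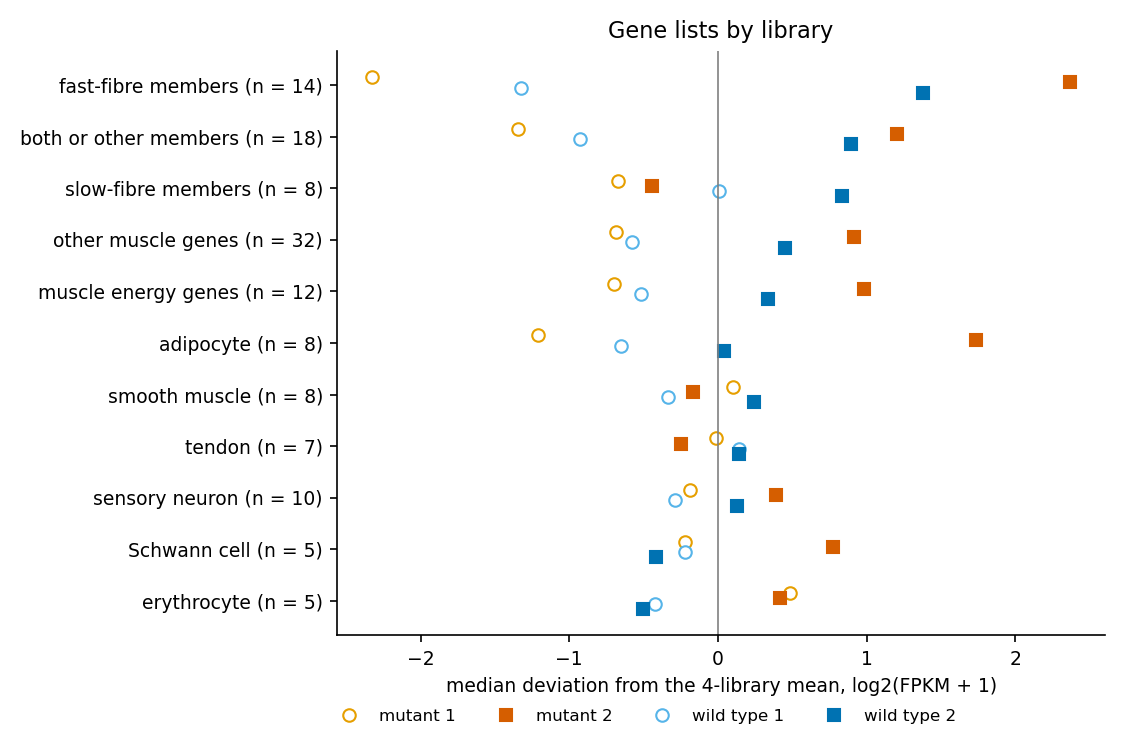
Median deviation of each gene list from the mean of the 4 libraries, on log2(FPKM + 1), with the number of genes in brackets. Fast-fibre genes run from -2.33 in mutant 1 to 2.37 in mutant 2 and adipocyte genes from -1.21 to 1.73, while smooth muscle and tendon genes stay within 0.34 of 0 in all libraries.

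Few genes of immature or cardiac muscle had a row, and a gene without one is not analysed here. Of 8 developmental myosin and neuromuscular junction genes 2 had a row, the acetylcholine receptor subunits Chrnb1, at 1.92 and 2.33 FPKM in mutant 1 and 2 and 2.91 and 2.79 FPKM in wild type 1 and 2, and Chrna1, at 1.04 and 0.965 FPKM in mutant 1 and 2 and 0.960 and 1.43 FPKM in wild type 1 and 2. Of 5 myogenic regulators 2 had a row. Myf6, a regulator of mature fibres, was at 0.155 and 3.34 FPKM in mutant 1 and 2 and at 0.688 and 0.881 FPKM in wild type 1 and 2. Myod1, which is more active in fast fibres, was listed at 0 in mutant 1 and at 1.07 FPKM in mutant 2, against 0.0824 and 0.170 FPKM in wild type 1 and 2. Of 8 cardiac genes 3 had a row, with the atrial light chain gene Myl4 at 3.74 and 5.86 FPKM in mutant 1 and 2 and at 4.63 and 5.39 FPKM in wild type 1 and 2. The cardiac actin gene Actc1 was at 0.476 and 6.48 FPKM in mutant 1 and 2, against 0.583 and 4.99 FPKM in wild type 1 and 2, with mutant 2 highest and mutant 1 lowest.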

How the data were processed

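RNA from 2 mutant and 2 wild type samples was sequenced in bulk. The authors deposited FPKM values for 14405 genes, and a table of 150 genes holding each group's FPKM, its log2 change and the p-value with its q-value, in Cuffdiff's format per the file headers. The submitters' processing notes name mm10, Cufflinks 2.2.1, TopHat2 2.1.2 and CASAVA, without settings. Each matrix column took its sample from the title. Depth is unknown, so no counting interval is given.

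From the FPKM values, limma 3.58.1 in R 4.3.3 was fitted on log2(FPKM + 1) with a mean-dependent variance prior, over the 14040 genes whose mean reached 1 FPKM in mutants or in wild type, all 40 muscle genes among them, adjusted by Benjamini and Hochberg. In data simulated for this comparison over 14040 genes, 88.2% of 200 genes changed 8-fold were recovered, with 6.0 false calls a run on average. The changed genes were drawn from all genes, each with its own spread. Many muscle genes varied widely, with a standard error of 1.97 for the log2 difference of Ckm, so this share does not describe them. Ratios, shares and sums were computed in Python 3.11.15 from FPKM as deposited, with no pseudocount unless stated. Promoters are RefSeq entries and matched 30 of 40 genes. The muscle genes and all lists were chosen with earlier results of these data known. From each list the 2 genes of highest mean FPKM are named, with the 8 genes nearest in profile; 1 listed marker gene is not reported here. Alternatives changed the pseudocount, filter, scaling, replicate block and libraries.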

Additional observations from a re-analysis of the deposited data

How the results depend on the processing

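With each library left out, between 0 and 5 genes passed an adjusted p of 0.05 in limma, and between 0 and 1 of the 40 muscle genes, which was Csrp3 without wild type 1 (log2 difference -3.11, limma adjusted p = 0.0340; 0.336 to 1.00 otherwise). The number of muscle genes with every remaining mutant library below every remaining wild type library then ran from 6 to 39. Those above ran from 0 to 25. The 39 came without mutant 2 and the 25 without mutant 1. With 1 library left in a group such separation is easier to reach, and its share over all genes was not computed. With a replicate block 61 genes passed, 1 of them a muscle gene, Myl2 (limma adjusted p = 0.0289, and 0.140 to 0.356 in the other fits). Deviations of same-numbered libraries correlated at 0.481 over genes, but with 2 pairs and no label to that effect the numbers are not taken to pair animals. Another pseudocount, filter or scaling moved no count by more than 1.5 times: 23 to 28 genes were 4-fold higher in mutant 2 than in mutant 1 and 24 to 31 in wild type 2 than in wild type 1, where a pseudocount of 1 was chosen after seeing the data. The fast-to-slow mean ran from 4.64 to 5.66 in mutants and from 3.83 to 4.88 in wild type. Scaling left 23 to 26 of the 40 log2 differences negative. Without read counts, depth sets no stated limit, and values under 1 FPKM are the least certain.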

Other observations

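Of the 32 further contractile and calcium genes, 2 had both mutants below both wild types, a smaller share than the 19.6% of all genes tested. They were Sln and Myoz3, named after their values were seen. Sln, which encodes the calcium pump regulator sarcolipin, was at 0.287 FPKM in mutant 1 and listed at 0 in mutant 2, against 1.87 and 1.85 FPKM in wild type 1 and 2. Like Myl2, it hardly differed between the wild types, although their muscle sums differed 6.17-fold. Myoz3, a myozenin of fast fibres, was at 7.44 and 6.43 FPKM in mutant 1 and 2 and at 7.76 and 8.11 FPKM in wild type 1 and 2. Mybph, which encodes a relative of myosin binding protein C, was at 0.770 and 6.01 FPKM in mutant 1 and 2, against 0.412 and 1.22 FPKM in wild type 1 and 2, and was the gene of the further contractile list that was at least 4-fold higher in mutant 2 than in wild type 2. Ankrd2, a stretch-responsive gene of slow fibres, was at 0.206 and 0.786 FPKM in mutant 1 and 2, against 0.469 and 2.68 FPKM in wild type 1 and 2.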
